A study of Homo sapiens with 6 samples.

Results

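Cytochrome P450 genes and their microsomal electron donors were described in Hep3B, an established human hepatocellular carcinoma cell line, with and without knockdown of DAGLA, the gene of diacylglycerol lipase alpha. Members were the protein-coding genes of GENCODE release 29 whose symbol is CYP followed by a family number, a subfamily letter and a gene number, without CYP51A1 of sterol synthesis, and with POR, CYB5A and CYB5R3 added. Of 57 such genes, 46 were listed among the 29908 genes of the expression table, and 16 of these averaged 0.5 FPKM or more across the 6 libraries. FPKM counts sequenced fragments relative to gene length and library size. The 11 members not listed, which are CYP2A7, CYP2A13, CYP2C19, CYP2F1, CYP4A22, CYP4B1, CYP4F8, CYP4F22, CYP4X1, CYP4Z1 and CYP11B2, were not analysed here.

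The Hep3B-KD group was infected with a lentivirus carrying shDAGLA, a short hairpin RNA against DAGLA, and the Hep3B-Con group with a control lentivirus, which the series text calls an empty vector and the study's methods call a negative sequence. Both groups went through the same infection, at a multiplicity of infection of 5, and puromycin selection, and each was sequenced as RNA in 3 libraries. The comparison asks how the transcripts of the P450 system differed between knockdown and control cells. It rests on 1 hairpin in 1 cell line, and whether the replicates were separate cultures is not stated beyond the word biological, so p-values measure the spread between these libraries only. In bulk libraries, fewer cells that use a gene and less RNA of it per cell cannot be told apart.

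P450 enzymes are heme proteins that insert an oxygen atom into lipophilic substrates, and the liver is their main site. Families 1 to 3 oxidise mostly drugs and other foreign compounds, whereas most other families act on fatty acids, sterols, bile acids, steroid hormones, vitamin D or retinoic acid. Microsomal enzymes receive electrons from NADPH through the flavoprotein POR, with cytochrome b5 (CYB5A) and its reductase (CYB5R3) as a further route, and mitochondrial enzymes such as CYP27A1 and CYP24A1 receive them from ferredoxin.

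Reads assigned to the listed genes, recovered from the FPKM values, totalled 15861039 to 17572714 per library. The target gene was checked first. DAGLA was at 9.42, 9.40 and 9.02 FPKM in Hep3B-Con and at 4.62, 4.46 and 4.78 FPKM in Hep3B-KD, so every knockdown library lay below every control library (log2 fold change -0.99, SE 0.0441, limma adjusted p = 5.25e-06). All 8 hepatocyte markers examined were above 0.5 FPKM, and their summed level was 2560 to 2610 FPKM in Hep3B-Con and 4050 to 4070 FPKM in Hep3B-KD, most of it ALB. Of these 8, FGB went the other way, from 19.5 to 9.96 FPKM, as did HNF4A, from 56.2 to 43.9 FPKM. The summed level of 5 cholangiocyte markers, 4 of them above 0.5 FPKM, was 273 to 321 FPKM in Hep3B-Con and 352 to 396 FPKM in Hep3B-KD, while KRT7 among them went from 2.15 to 0.710 FPKM. Of 6 fibroblast markers 3 were above 0.5 FPKM, with a sum of 9.28 to 10.2 FPKM in Hep3B-Con and 5.48 to 5.96 FPKM in Hep3B-KD. Leukocyte markers summed to 2.83 to 4.45 FPKM in Hep3B-Con and 3.98 to 4.79 FPKM in Hep3B-KD, through CD14 and LYZ, while CD3E, CD68 and CD163 were not listed. The 4 endothelial markers were all under 0.5 FPKM. The part of these lists in the results was not tested.

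The promoters of 4 members are shown. Among enzyme genes above 0.5 FPKM, CYP4V2 and CYP39A1 had the largest rises and CYP1A1 the highest level, and CYP2B6, below 0.5 FPKM, had a large fall. Each runs from 250 bases before to 50 bases after the start of a RefSeq transcript on build GRCh38.p14, 5′ to 3′ on the strand of the gene, namely CYP4V2 at chr4:186191317-186191616 on the plus strand, CYP39A1 at chr6:46652769-46653068 on the minus strand, CYP1A1 at chr15:74725479-74725778 on the minus strand and CYP2B6 at chr19:40991032-40991331 on the plus strand. Capitals mark matches, on either strand, to 4 short motifs, which are GCGTG, the core that the aryl hydrocarbon receptor binds, AGGTCA, the nuclear receptor half-site, TATAAA, the TATA box, and CCAAT.
CYP4V2: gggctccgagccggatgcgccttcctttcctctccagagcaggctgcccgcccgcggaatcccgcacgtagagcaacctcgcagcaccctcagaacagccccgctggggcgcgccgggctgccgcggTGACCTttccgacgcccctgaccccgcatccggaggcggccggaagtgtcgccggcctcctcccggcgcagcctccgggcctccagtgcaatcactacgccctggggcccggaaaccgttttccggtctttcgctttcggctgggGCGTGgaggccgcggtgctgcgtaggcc
CYP39A1: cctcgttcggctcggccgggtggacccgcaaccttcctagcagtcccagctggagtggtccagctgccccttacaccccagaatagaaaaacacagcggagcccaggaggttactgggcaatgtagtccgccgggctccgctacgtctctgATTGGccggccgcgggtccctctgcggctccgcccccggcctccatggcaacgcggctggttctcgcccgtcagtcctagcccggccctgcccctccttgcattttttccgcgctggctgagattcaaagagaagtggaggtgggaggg
CYP1A1: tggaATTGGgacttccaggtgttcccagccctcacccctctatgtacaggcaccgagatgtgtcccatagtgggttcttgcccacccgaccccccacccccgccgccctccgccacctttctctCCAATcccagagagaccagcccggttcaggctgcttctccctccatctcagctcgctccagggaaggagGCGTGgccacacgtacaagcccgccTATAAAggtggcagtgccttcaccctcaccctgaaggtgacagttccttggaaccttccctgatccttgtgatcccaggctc
CYP2B6: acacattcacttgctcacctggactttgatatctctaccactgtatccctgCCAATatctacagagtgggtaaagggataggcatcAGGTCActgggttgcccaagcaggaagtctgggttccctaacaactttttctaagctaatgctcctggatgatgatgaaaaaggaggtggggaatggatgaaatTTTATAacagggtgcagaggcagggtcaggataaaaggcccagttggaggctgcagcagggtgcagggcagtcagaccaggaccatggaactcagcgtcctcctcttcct
CYP1A1 held GCGTG at base -57 and TATAAA at base -32 from its start, and CCAAT at -126 and, on the other strand, at -246. CYP4V2 held AGGTCA on the other strand at -123 and GCGTG at base 23 after its start. CYP39A1 held only CCAAT, on the other strand at -99. CYP2B6 held AGGTCA at -164, CCAAT at -199 and TATAAA on the other strand at -60. No match overlapped a match of another motif in these windows, and a match is a description of these letters, not a bound site.

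RefSeq promoters of this length were matched for 32 of the 46 listed members, 12 of them above 0.5 FPKM. Counted per promoter, since some genes have several, the 17 promoters of members above that level had a median of 68.7% GC, the 29 of members below it 54%, and all 35116 promoters 58.7%. TATAAA was found in 11.8% of the 17 promoters (genes CYP1A1 and CYP26B1), 28.3% of the 46 promoters of listed members and 11.5% of all promoters. AGGTCA was found in 5.88% of the 17 (CYP4V2), 26.1% of the 46, among them promoters of CYP3A4, CYP3A5, CYP3A7, CYP2B6 and CYP2E1, and 13.8% of all. GCGTG was found in 47.1%, 23.9% and 36.5% of these sets, and CCAAT in 47.1%, 54.3% and 34.6%.

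The P450 transcripts of Hep3B came from a small number of genes. Summed over the 43 listed enzymes, the level was 72.4, 71.2 and 68.9 FPKM in Hep3B-Con and 79.0, 80.7 and 78.1 FPKM in Hep3B-KD. The knockdown libraries all lay above the control libraries, with means of 79.3 ± 1.29 and 70.8 ± 1.78 FPKM (SD, n = 3 each). The exact two-sided permutation test gave p = 0.1, which is the smallest value that 3 against 3 libraries allow. CYP1A1, CYP27A1 and CYP26B1 made up 68.1 to 68.7% of the sum in Hep3B-Con and 61.2 to 63.2% in Hep3B-KD, and the 13 enzymes above 0.5 FPKM made up at least 94.8% in every library.

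**Figure D1:**
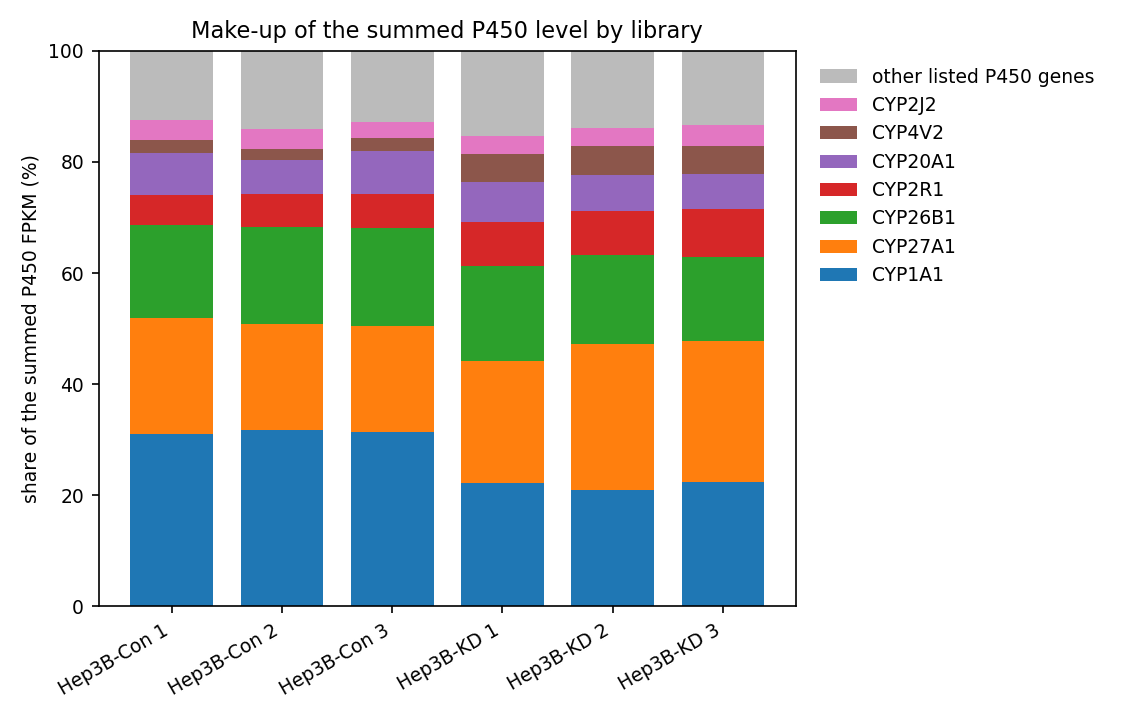
Share of each P450 gene in the summed FPKM of the 43 listed P450 enzymes (vertical axis, %), with one stacked bar per library. CYP1A1 held 31.0 to 31.8% in the Hep3B-Con libraries and 20.9 to 22.4% in the Hep3B-KD libraries, and CYP4V2 held 1.85 to 2.37% and 5.11 to 5.22%.

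The make-up of the sum differed between the groups. CYP1A1 was the highest enzyme in all Hep3B-Con libraries and in Hep3B-KD 1, and CYP27A1 was higher than CYP1A1 in Hep3B-KD 2 and 3. Without CYP1A1, the sum of the other enzymes was 48.6 ± 1.37 FPKM in Hep3B-Con and 62.0 ± 1.66 FPKM in Hep3B-KD (SD, n = 3 each), and no libraries overlapped (exact permutation p = 0.1). At least 1 read was found for 33 to 35 of the 43 enzymes in Hep3B-Con and for 35 to 38 in Hep3B-KD, which overlapped at 35.

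The enzymes above the filter lay mostly apart from other P450 genes. Of the 54 enzyme genes, 31 lie within 200 kb of another member in 8 groups, such as the CYP2C, CYP3A and CYP4F clusters, and only CYP1A1 of these 31 passed 0.5 FPKM. Of the 23 that lie alone, 12 passed and 11 did not. This count is a description, since the genes of a cluster are close copies and not independent.

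Among the 16 members tested with limma on log2(FPKM + 0.1) together with all 14221 genes of at least 0.5 FPKM, 6 rose in Hep3B-KD and 4 fell at an adjusted p under 0.05, and 6 did not pass. Over all genes tested, 36.1% rose and 23.8% fell, so most of the genes tested were called. At a change of at least 2-fold, CYP4V2 and CYP39A1 rose and CYB5R3 fell, against 5.89% and 2.94% of all genes. Counted by libraries, 7 members had all Hep3B-KD values above all Hep3B-Con values and 5 had them all below, against 40.7% and 26.3% of all genes. The median log2 fold change was 0.18 over the 16 members, 0.48 over the 13 enzymes among them and 0.11 over all genes. Centring each library on its median log ratio took the median of all genes to 0.01, the share of higher calls from 60.2 to 48.5% over all genes, and the members' calls to 5 higher and 5 lower.

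**Figure D2:**
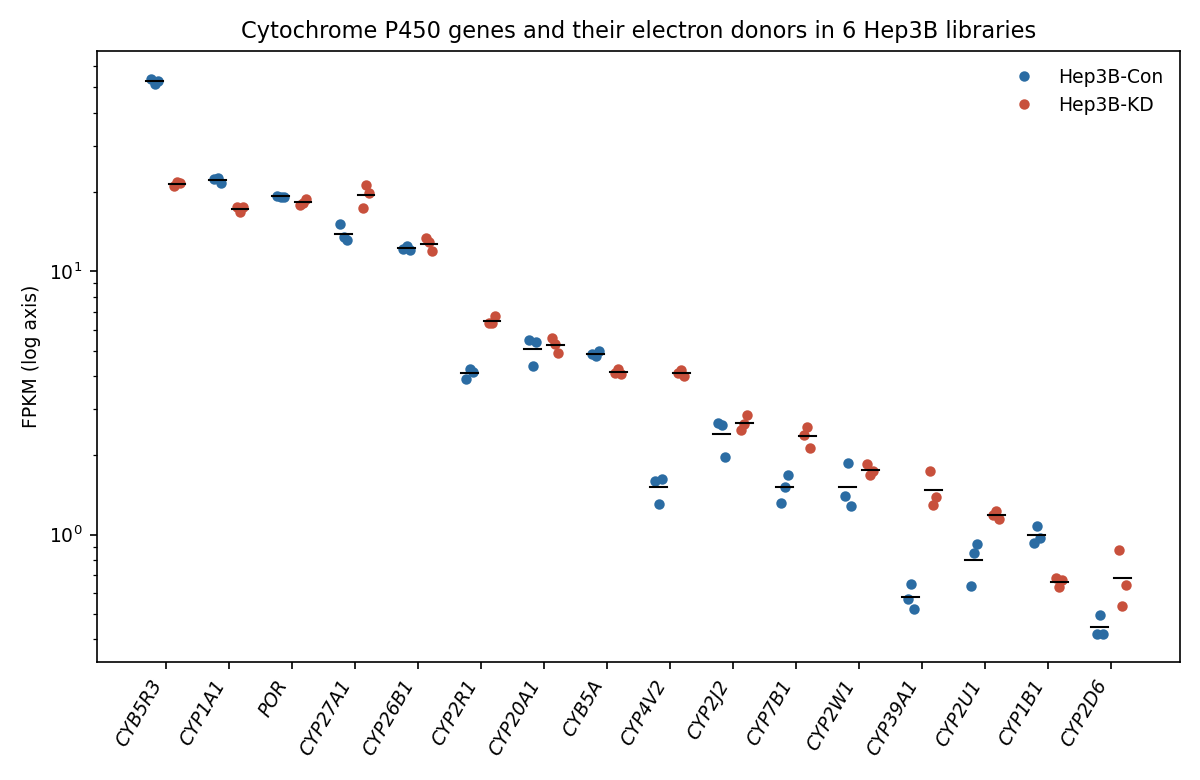
FPKM (vertical log axis) of the 16 members with a mean of at least 0.5 FPKM, with a point per library and a line at each group mean of 3 libraries. CYB5R3 lay at 51.3 to 54.0 FPKM in Hep3B-Con and 21.0 to 21.8 FPKM in Hep3B-KD, and the Hep3B-KD points of CYP4V2 and CYP39A1 all lay above their Hep3B-Con points.

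All 3 electron donors had lower values in every Hep3B-KD library than in any Hep3B-Con library, where 26.3% of all genes tested did. CYB5R3, the NADH-cytochrome b5 reductase (chr22:42617840-42649568, minus strand), was at 54.0, 51.3 and 52.9 FPKM in Hep3B-Con and at 21.0, 21.8 and 21.7 FPKM in Hep3B-KD. This was the largest fall of a member above the filter (log2 fold change -1.29, SE 0.0286, limma adjusted p = 3.82e-07), and the group means were 52.7 ± 1.35 and 21.5 ± 0.440 FPKM (SD, n = 3 each). CYB5A, the cytochrome b5 that it reduces, was at 4.85, 4.78 and 4.97 FPKM in Hep3B-Con and at 4.10, 4.24 and 4.08 FPKM in Hep3B-KD. CYB5A fell by 0.23 on the log2 scale (SE 0.0450, limma adjusted p = 0.00433). The ratio of CYB5R3 to CYB5A in FPKM was 10.6 to 11.1 in Hep3B-Con and 5.12 to 5.33 in Hep3B-KD.

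POR, the NADPH-P450 reductase that serves the microsomal enzymes, was at 19.4, 19.2 and 19.1 FPKM in Hep3B-Con and at 17.9, 18.2 and 18.9 FPKM in Hep3B-KD. The groups did not overlap, but their gap was narrow and POR did not pass the test (log2 fold change -0.07, 95% CI -0.14 to -0.00, limma adjusted p = 0.0756). It passed after median centring (-0.17, limma adjusted p = 0.00221) and without Hep3B-KD replicate 3 (-0.09, limma adjusted p = 0.0435). The ratio of POR to the P450 sum was 0.272 ± 0.00482 in Hep3B-Con and 0.231 ± 0.00867 in Hep3B-KD (SD, n = 3 each, exact permutation p = 0.1). That sum includes mitochondrial enzymes that POR does not serve, among them CYP27A1, at means of 13.9 FPKM in Hep3B-Con and 19.5 FPKM in Hep3B-KD.

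The hairpin's guide strand was compared with the longest annotated 3′ UTR of each gene. CYB5R3 held the only seed match among the 16 members above the filter. The target in DAGLA and the guide strand are shown with the seed match and the seed (bases 2 to 8 of the guide) in capitals, followed by the site in CYB5R3 (seed match at chr22:42619569-42619575, minus strand, GRCh38) and a site in CYP3A5 (chr7:99663429-99663435, minus strand).
DAGLA target: gcgacaacaagGCCTTCAa
guide strand: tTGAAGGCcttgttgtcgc
CYB5R3 site: gccacggctgaGCCTTCAgagtacgtcct
CYP3A5 site: aactcagctttGCCTTCAcgagccctaga
Among all genes tested with an annotated 3′ UTR, 14.5% (1627 of 11185) held the match, against 1 of 16 members above the filter, or 6.25%. The median log2 fold change was -0.04 over the genes with the match and 0.11 over those without it. CYB5R3 fell and CYP3A5, described with the low genes, had higher values in Hep3B-KD. The CYP3A5 site lies at base 1730 of an annotated 3′ UTR of 3098 bases. That UTR is longer than the whole principal transcript of the gene (1720 bases). CYP19A1, CYP4A11 and CYP8B1, all under the filter and with overlapping groups, also held the match. Whether the guide strand acts on any of these transcripts was not tested.

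The 3 bile acid and oxysterol enzymes above the filter all rose, where 36.1% of all genes tested did. CYP39A1, an oxysterol 7-alpha-hydroxylase that prefers 24-hydroxycholesterol (chr6:46549580-46652830, minus strand), was at 0.567, 0.647 and 0.521 FPKM in Hep3B-Con and at 1.74, 1.30 and 1.39 FPKM in Hep3B-KD, and its lowest knockdown library was well above its highest control library. The log2 fold change was 1.21 (SE 0.168, limma adjusted p = 0.000812), from 27 to 35 reads in each Hep3B-Con library and 65 to 86 reads in each Hep3B-KD library. Its size depends on the scale, being 0.65 with a pseudocount of 1 and 0.94 after quantile normalization, both still past the test.

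CYP27A1, the mitochondrial sterol 27-hydroxylase that starts the acidic route of bile acid synthesis, was at 15.1, 13.5 and 13.2 FPKM in Hep3B-Con and at 17.4, 21.2 and 19.8 FPKM in Hep3B-KD. The groups did not overlap, and the spread was wider in Hep3B-KD (log2 fold change 0.48, SE 0.0838, limma adjusted p = 0.00256). CYP7B1, which hydroxylates the product of CYP27A1 in the same route, was at 1.32, 1.51 and 1.68 FPKM in Hep3B-Con and at 2.38, 2.56 and 2.14 FPKM in Hep3B-KD (log2 fold change 0.62, SE 0.117, limma adjusted p = 0.00361). CYP7A1 and CYP8B1 of the classical route were at the limit of detection. CYP7A1, its rate-limiting enzyme, had 0, 0 and 1 reads in Hep3B-Con and 2, 1 and 1 in Hep3B-KD, and CYP8B1, the sterol 12-alpha-hydroxylase, had 1 read in all 6 libraries together. CYP46A1, the cholesterol 24-hydroxylase of the brain, had 2 reads in all.

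CYP4V2, a fatty acid omega-hydroxylase mutated in Bietti crystalline dystrophy (chr4:186191520-186213456, plus strand), was the only family 4 gene above the filter and had the largest rise of the 16 members. It was at 1.60, 1.31 and 1.63 FPKM in Hep3B-Con and at 4.10, 4.21 and 3.99 FPKM in Hep3B-KD, with narrow spread in each group and no overlap. The log2 fold change was 1.39 (SE 0.0943, limma adjusted p = 2.98e-05), and leaving out any 1 library gave 1.29 to 1.44. Of its annotated exon bases, 2.05% are shared on the same strand with the neighbouring gene KLKB1. KLKB1 was at 0.299 FPKM in Hep3B-Con and 1.21 FPKM in Hep3B-KD. Some reads could therefore belong to either gene, and their share was not measured. The other family 4 genes listed, CYP4A11, CYP4F2, CYP4F3, CYP4F11 and CYP4F12, were below the filter, with at most 11 reads in any library.

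Of 7 vitamin D and retinoic acid enzymes, CYP2R1 and CYP26B1 passed the filter. CYP2R1, the main vitamin D 25-hydroxylase of the liver, was at 3.91, 4.25 and 4.16 FPKM in Hep3B-Con and at 6.35, 6.36 and 6.78 FPKM in Hep3B-KD, well apart (log2 fold change 0.65, SE 0.0532, limma adjusted p = 6.81e-05). CYP26B1, which breaks down retinoic acid, was at 12.2, 12.5 and 12.1 FPKM in Hep3B-Con and at 13.4, 12.9 and 11.9 FPKM in Hep3B-KD. These groups overlapped, and the log2 fold change of 0.05 had a 95% CI of -0.06 to 0.17 (limma adjusted p = 0.375). The interval leaves no room for a change in CYP26B1 of the size measured for CYP2R1.

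Of the genes of families 1 to 3 grouped here as drug-oxidising, 17 were listed and 5 passed the filter. Of these 5 none rose and 2 fell, against 36.1% and 23.8% of all genes tested. This grouping leaves out CYP2R1 and CYP2U1, family 2 genes described with other enzymes, which both passed the filter and rose. CYP1A1, the classical target of the aryl hydrocarbon receptor (chr15:74719542-74725610, minus strand), was at 22.4, 22.7 and 21.6 FPKM in Hep3B-Con and at 17.5, 16.8 and 17.5 FPKM in Hep3B-KD. All knockdown libraries were lower, by a small and even margin (log2 fold change -0.36, SE 0.0314, limma adjusted p = 8.80e-05). CYP1B1, which activates polycyclic hydrocarbons and hydroxylates estrogens, was at 0.927, 1.08 and 0.969 FPKM in Hep3B-Con and at 0.681, 0.632 and 0.671 FPKM in Hep3B-KD. It fell by 0.52 on the log2 scale (SE 0.151, limma adjusted p = 0.0226). This call was lost without Hep3B-Con replicate 2 (limma adjusted p = 0.0747), Hep3B-Con replicate 3 (0.0567) or Hep3B-KD replicate 2 (0.0555). Of the gene's exon bases, 11.3% overlap the antisense gene CYP1B1-AS1, whose reads cannot be told apart without strand. CYP1B1-AS1 was at 0.0496 FPKM in Hep3B-Con and 0.0579 FPKM in Hep3B-KD.

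CYP2J2, an arachidonic acid epoxygenase, was at 2.40 ± 0.377 FPKM in Hep3B-Con and 2.65 ± 0.178 FPKM in Hep3B-KD (SD, n = 3 each), and CYP2W1, known as a tumour-associated enzyme of fetal gut, was at 1.51 ± 0.312 and 1.76 ± 0.0925 FPKM. Neither passed (log2 fold changes 0.15 and 0.22, limma adjusted p = 0.353 and 0.237), and after quantile normalization both values were just below 0. CYP2W1 passed without Hep3B-Con replicate 2 (0.37, limma adjusted p = 0.0325), its highest control library. CYP2D6, an enzyme of many antidepressants and opioids, was at 0.419, 0.495 and 0.418 FPKM in Hep3B-Con and at 0.877, 0.535 and 0.641 FPKM in Hep3B-KD. The groups did not overlap, but the spread in Hep3B-KD was wide (log2 fold change 0.51, SE 0.253, limma adjusted p = 0.126). Its near-identical neighbour CYP2D7 had 15, 10 and 10 reads in Hep3B-Con and 35, 27 and 24 in Hep3B-KD, so the division of reads between them is uncertain.

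Of the 2 enzymes with little known function, CYP20A1 was at 5.49, 4.35 and 5.39 FPKM in Hep3B-Con and at 5.59, 5.28 and 4.89 FPKM in Hep3B-KD, which overlapped (log2 fold change 0.05, 95% CI -0.19 to 0.29, limma adjusted p = 0.668). CYP2U1, a long-chain fatty acid hydroxylase of mitochondria and endoplasmic reticulum, was at 0.635, 0.849 and 0.917 FPKM in Hep3B-Con and at 1.19, 1.23 and 1.15 FPKM in Hep3B-KD. CYP2U1 rose by 0.53 on the log2 scale (SE 0.165, limma adjusted p = 0.0297). The call was lost under 8 of 16 alternatives, among them median centring (limma adjusted p = 0.0641), quantile normalization (0.25, limma adjusted p = 0.233) and the omission of Hep3B-Con replicate 1 (0.0616) or Hep3B-KD replicate 1 (0.0734), 2 (0.0819) or 3 (0.0633).

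**Figure D3:**
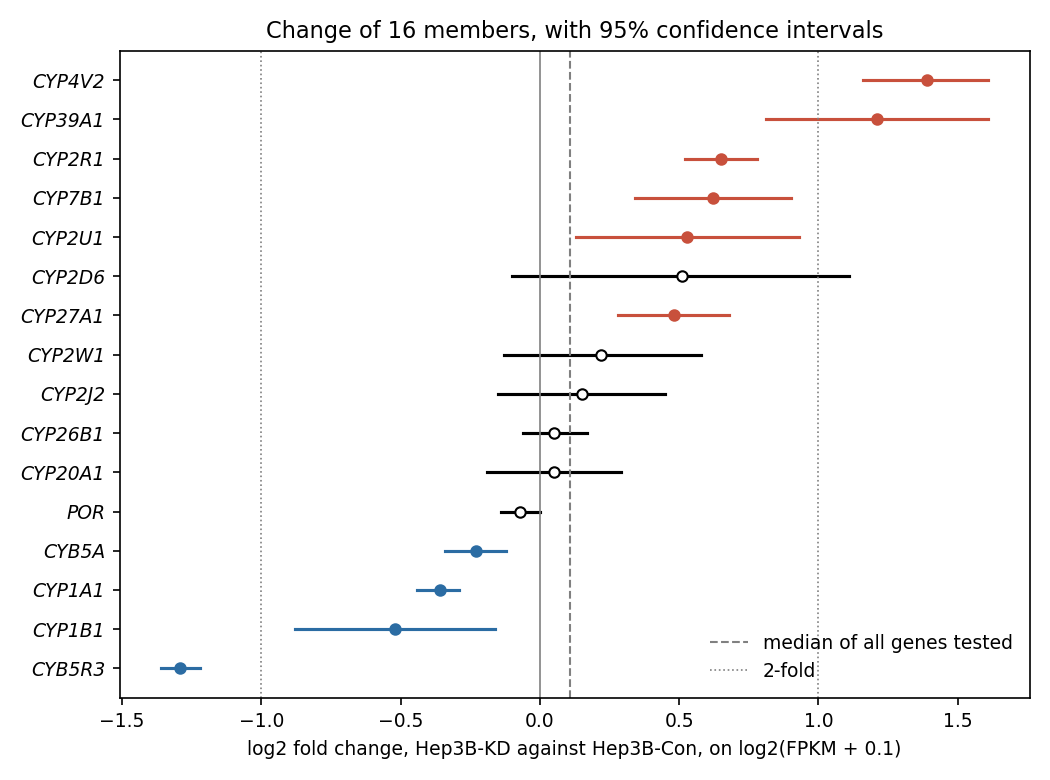
Log2 fold change of the 16 members, Hep3B-KD against Hep3B-Con (horizontal axis, on log2(FPKM + 0.1)), with 95% confidence intervals from limma. Filled points passed an adjusted p under 0.05 (red higher, blue lower), open points did not, the dashed line is the median of all genes (0.11) and dotted lines mark 2-fold. CYP4V2 (1.39) and CYB5R3 (-1.29) were the extremes.

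The order of levels depends on the gene length that the values were divided by. The FPKM values use all annotated exon bases of a gene, which for CYP4V2 are 9807 bases against 2042 of its principal transcript. Divided by the length of the principal transcript, with the library scaling kept, CYP4V2 was at 7.28 ± 0.839 in Hep3B-Con and 19.7 ± 0.516 in Hep3B-KD (SD, n = 3 each), so that in Hep3B-KD it came close below CYP1A1 (22.1 ± 0.502) and CYP27A1 (25.4 ± 2.50) and above CYP26B1 (13.5 ± 0.815). On the same scale, POR was at 46.7 ± 0.383 in Hep3B-Con and 44.4 ± 1.16 in Hep3B-KD, above every P450 enzyme. CYB5R3 was at 148 ± 3.79 and 60.5 ± 1.24. This scale assumes that reads come from the principal transcript, and it does not alter any difference between groups.

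Below the filter were 30 listed members, and 9 of them had at most 3 reads in every library. All Hep3B-KD values lay above the Hep3B-Con values for 8 of the 30, in some by depth scaling of equal read numbers alone, and below them for 2, against 12.7% and 3.05% of all listed genes under the filter. The filter separated CYP2D6, at a mean of 0.564 FPKM just inside, from CYP27B1, at 0.473 FPKM just outside. Reads recovered from the FPKM values, the exon lengths and the library totals were used for these genes. With limma's voom on genes with a mean of at least 10 reads, an alternative chosen after seeing the data, 23 members were tested, of which 7 rose and 6 fell, against 40.1% and 24.7% of the 14805 genes tested. At a change of at least 2-fold, 3 rose and 3 fell, against 8.5% and 3.5% of these genes. The changes added below the filter were those of CYP24A1, CYP2B6 and CYP3A5. CYP24A1 and CYP2B6 had fewer than 10 reads in every Hep3B-KD library and entered this test only through their Hep3B-Con reads. Their part in the count of falls therefore depends on that selection.

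CYP24A1, the mitochondrial enzyme that inactivates vitamin D and a classical vitamin D receptor target, had 51, 45 and 57 reads in Hep3B-Con and 4, 0 and 5 reads in Hep3B-KD. All knockdown libraries were near 0, and the total was 153 against 9 reads, or 16-fold lower per library size (95% exact counting interval 8.20 to 35.6). The voom log2 fold change was -4.38 (SE 0.536, limma adjusted p = 3.60e-07), and over the omission of any 1 library the adjusted p was at most 6.86e-06. CYP2B6, a target of the nuclear receptor NR1I3 that oxidises drugs such as bupropion, had 53, 51 and 37 reads in Hep3B-Con and 4, 4 and 6 reads in Hep3B-KD. The total was 141 against 14 reads, 9.47-fold lower (95% exact counting interval 5.46 to 17.8), with a voom log2 fold change of -3.12 (SE 0.394, limma adjusted p = 5.61e-07). On log2(FPKM + 0.1) without a filter the changes were smaller, at -2.57 for CYP24A1 (limma adjusted p = 0.00142) and -2.22 for CYP2B6 (limma adjusted p = 0.00103).

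CYP3A5, a member of the main drug-oxidising subfamily of liver, had 13, 9 and 10 reads in Hep3B-Con and 34, 35 and 35 reads in Hep3B-KD. The total was 32 against 104 reads, 3.46-fold higher (95% exact counting interval 2.31 to 5.31), with a voom log2 fold change of 1.76 (SE 0.314, limma adjusted p = 5.02e-05). Reads of the CYP3A genes are hard to assign because their sequences are alike. The other genes of the cluster were low, with 0, 0 and 1 reads in Hep3B-Con and 1, 2 and 1 in Hep3B-KD for CYP3A4, the major adult enzyme, and 2, 2 and 2 against 5, 2 and 10 for CYP3A7, the fetal one.

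**Figure D4:**
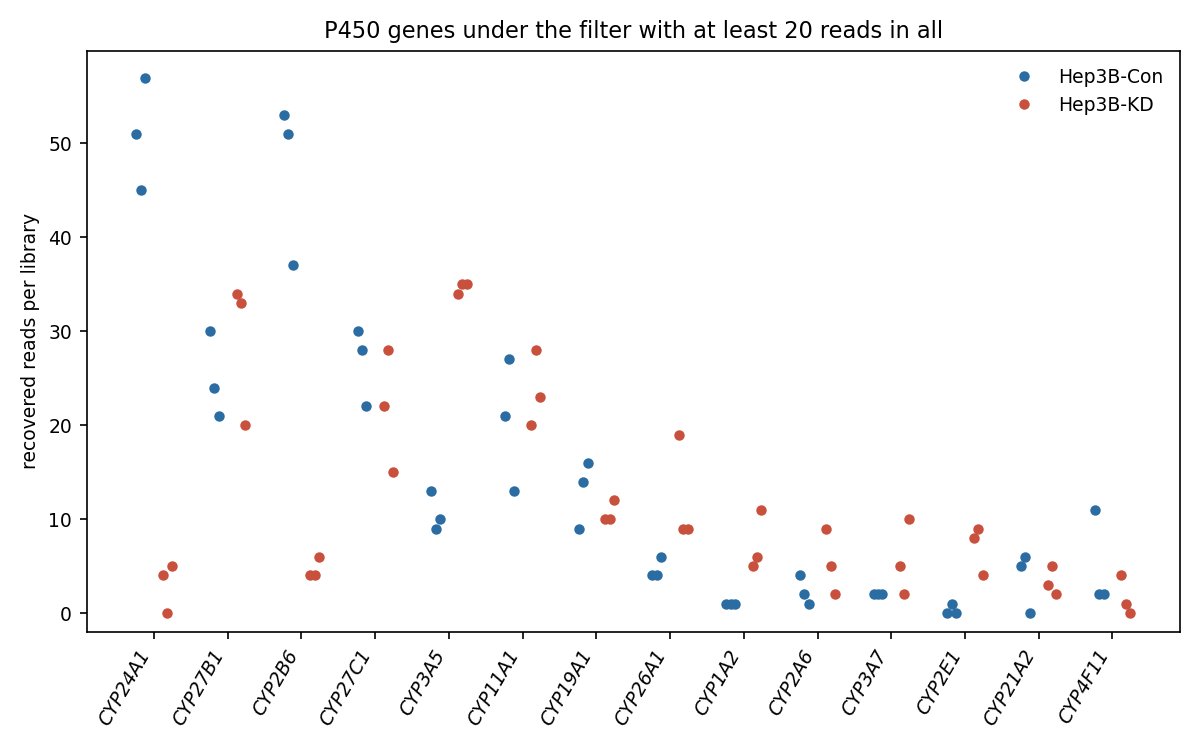
Recovered reads per library (vertical axis) of 14 of the 15 P450 genes under the filter with at least 20 reads over the 6 libraries, with a point per library. CYP24A1 and CYP2B6 fell from 37 or more reads in each Hep3B-Con library to 6 or fewer in each Hep3B-KD library, and CYP3A5 went from 9 to 13 reads to 34 to 35 reads.

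Of the 15 genes with at least 20 reads, 6 had all Hep3B-KD values above and 2 all below the Hep3B-Con values, against 27.5% and 7.80% of the 4091 genes under the filter with as many reads. CYP2E1, the ethanol-oxidising enzyme, had 0, 1 and 0 reads in Hep3B-Con and 8, 9 and 4 in Hep3B-KD, a ratio of 22.3 with a 95% exact counting interval of 3.59 to 924. CYP1A2, the neighbour of CYP1A1 that oxidises caffeine, had 1, 1 and 1 reads in Hep3B-Con and 5, 6 and 11 in Hep3B-KD, a ratio of 7.80 (interval 2.34 to 40.7), in the opposite direction to CYP1A1. CYP26A1, the retinoic acid hydroxylase of liver, had 4, 4 and 6 reads against 19, 9 and 9 (ratio 2.81, interval 1.48 to 5.63). Of the exon bases of CYP2E1, 21.5% overlap SYCE1 on the opposite strand, and 25.2% of those of CYP26A1 overlap AL358613.3 on the same strand. Neither overlapping gene was listed, and how its reads were assigned is not known. In the fit without a filter, CYP1A2 passed (log2 fold change 1.10, limma adjusted p = 0.0203), and CYP2E1 (limma adjusted p = 0.0645) and CYP26A1 (limma adjusted p = 0.120) did not. These intervals cover counting error only.

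Several low genes had no detectable difference. CYP27B1, which activates vitamin D, had 75 control and 87 knockdown reads, a ratio of 1.23 (interval 0.896 to 1.70), and CYP27C1, a retinol desaturase, had 80 and 65. Of the exon bases of CYP27B1, 3.11% are shared on the same strand with METTL1. METTL1 was at 5.90 FPKM in Hep3B-Con and 4.15 FPKM in Hep3B-KD, and how the shared reads were assigned is not known. Of the steroid hormone enzymes, none reached the filter. CYP11A1, which cleaves the cholesterol side chain, had 61 and 71 reads, and CYP19A1, the aromatase, had 39 and 32, with overlapping groups in both. CYP21A2 had 11 and 10 reads, and CYP17A1 and CYP11B1 had 2 reads each over all libraries. The drug-oxidising CYP2A6, CYP2C8, CYP2C18, CYP2S1 and CYP3A43 and the retinoic acid hydroxylase CYP26C1 had at most 9 reads in any library, with overlapping groups. Voom gave limma adjusted p = 0.440 for CYP27B1, 0.493 for CYP27C1, 0.353 for CYP11A1 and 0.756 for CYP19A1.

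Other genes of the P450 system moved in both directions. Of 8 further redox partners and P450-binding proteins tested, 3 rose and 2 fell, shares close to the 36.1% and 23.8% of all genes tested. CYB5B, the cytochrome b5 of the outer mitochondrial membrane, rose from 15.8 to 20.5 FPKM (log2 fold change 0.37, SE 0.0378, limma adjusted p = 0.000184), CYB5R1 rose from 6.91 to 9.73 FPKM and FDXR, the ferredoxin reductase of mitochondrial enzymes, rose from 2.57 to 3.49 FPKM. PGRMC2, a heme-binding membrane protein, fell from 23.2 to 12.2 FPKM (-0.92, SE 0.0368, limma adjusted p = 3.43e-06), and CYB5R4 fell from 2.32 to 1.72 FPKM. FDX1, the ferredoxin that serves CYP27A1 and CYP24A1, was at 4.60 and 4.29 FPKM and did not pass (limma adjusted p = 0.260).

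Of 12 genes of heme synthesis and breakdown, 5 rose and 4 fell, near the 36.1% and 23.8% of all genes tested. ALAS1, the rate-limiting enzyme of liver heme synthesis, went from 36.6 to 32.0 FPKM, a fall (log2 fold change -0.19, limma adjusted p = 0.00758), and the next enzyme, ALAD, rose from 10.1 to 18.8 FPKM (0.89, SE 0.0516, limma adjusted p = 1.52e-05). FECH, which inserts the iron, fell by 0.53 on the log2 scale, while UROS, UROD, CPOX and PPOX rose by 0.30 to 0.45. HMOX1, which degrades heme, fell from 14.7 to 8.70 FPKM (-0.76, limma adjusted p = 0.000635). Both epoxide hydrolases, which act on epoxides made by P450 enzymes, rose, EPHX1 from 29.8 to 54.2 FPKM (0.86, limma adjusted p = 6.45e-06) and EPHX2 from 2.75 to 4.94 FPKM (0.82, limma adjusted p = 4.42e-05).

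Of 12 regulators of P450 genes tested, 3 rose and 5 fell, against 36.1% and 23.8% of all genes tested. NR1H4, the bile acid receptor FXR, rose from 3.40 to 8.19 FPKM (log2 fold change 1.24, SE 0.0574, limma adjusted p = 6.09e-06), and CEBPA, a hepatocyte transcription factor, fell from 33.1 to 15.3 FPKM (-1.11, SE 0.0413, limma adjusted p = 2.66e-06). AHR, the receptor behind CYP1A1 induction, fell by 0.38 on the log2 scale, and its partner ARNT rose by 0.28 (limma adjusted p = 0.000471 and 0.000319). NR1I3, a receptor known to induce CYP2B6, fell from 1.73 to 1.11 FPKM (-0.58, limma adjusted p = 0.0111), HNF4A fell by 0.35 and NR0B2 by 0.21. VDR was under the filter, at 0.592, 0.243 and 0.275 FPKM in Hep3B-Con and 0.167, 0.0878 and 0.276 FPKM in Hep3B-KD, which overlapped, and NR1I2 was close to 0 in all libraries. Whether these regulators bear on the members was not tested.

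**Figure D5:**
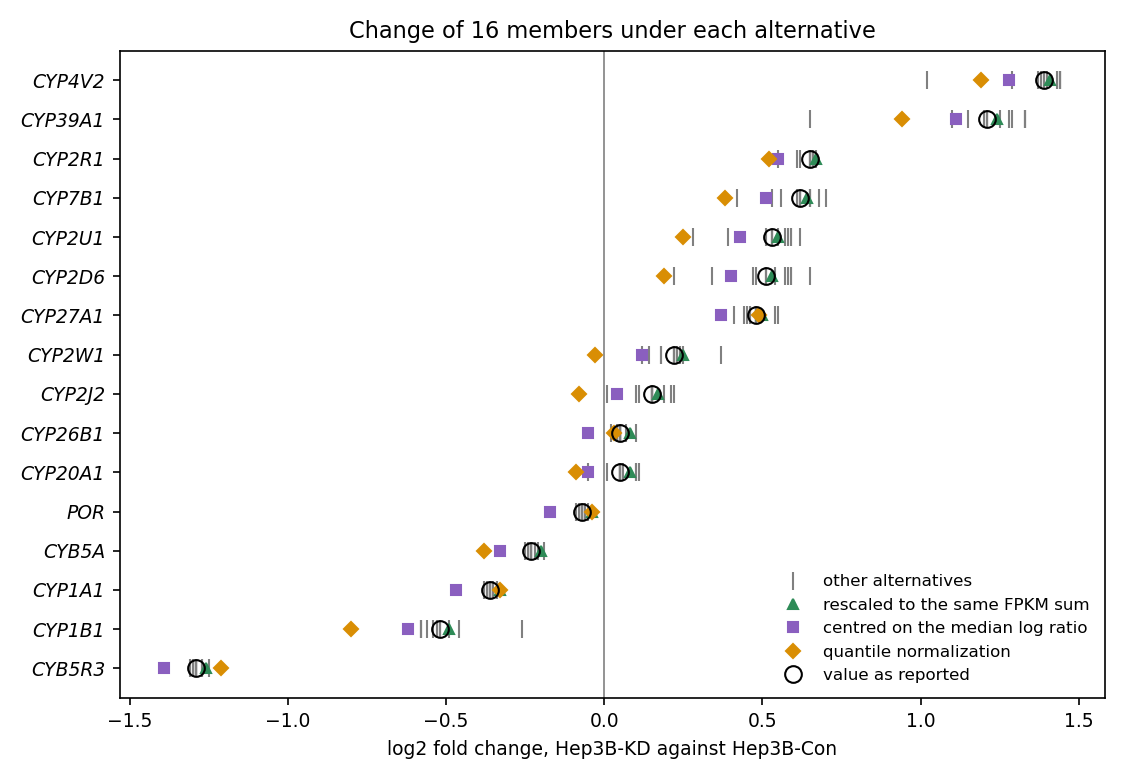
Log2 fold change of the 16 members (horizontal axis) as reported and under each alternative, with the 3 other scalings drawn as separate symbols. CYB5R3 stayed between -1.39 and -1.21 and CYP4V2 between 1.02 and 1.44, while CYP26B1, CYP20A1, CYP2J2 and CYP2W1 had values on both sides of 0.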

How the data were processed

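RNA sequencing of 6 Hep3B libraries was used, 3 of Hep3B-Con and 3 of Hep3B-KD, grouped by the sample records. The authors deposited FPKM values in 1 table, with 0 other columns of values. The submitters' notes name Bowtie2 2.0.6, TopHat2 2.0.12 and build GRCh37. The counting tool and strand handling are not given in the sources used here. Values multiplied by GENCODE release 29 (GRCh38) exon lengths and library totals were whole reads for 100% of values (within 0.01), so that annotation was used for coordinates.

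Values were analysed as log2(FPKM + 0.1), on which fold changes of low genes are understated, for genes averaging 0.5 FPKM or more. The fit used limma 3.58.1 (lmFit, eBayes with trend) in R 4.3.3 and Benjamini-Hochberg adjustment over all 14221 genes. On simulated reads with changes of at least 2-fold, it found 93.5% of 200 changed genes at a replicate dispersion of 0.01 but 33.5% at 0.1. Smaller changes were not simulated, and the dispersion of these libraries was not estimated. A gene that did not pass may still have changed. Named genes were all members and fixed lists of redox partners, heme enzymes, regulators and epoxide hydrolases, with values in every library for donors, for members changed at least 2-fold or with a mean of at least 10 FPKM, and for further members beyond that rule, chosen after their values were seen. The members, lists and tests were chosen with earlier results of these data known. Some genes of these lists are counted but not reported here by name.

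Replicates differed by more than sampling noise (chi-square per gene 1.80 to 3.30). Library totals were 15861039 to 17572714 reads, as recovered from the FPKM values of the listed genes, and reads outside these genes are not included. Counting intervals are exact (Clopper-Pearson, 95%), and no fold is given where both groups had at most 3 reads. Seed matches were sought in the longest GENCODE 3′ UTR of each gene, and promoter sequences are from RefSeq (GRCh38.p14). Alternatives were the filter, the pseudocount, 3 scalings, eBayes without trend, a replicate block, voom on recovered reads, and each library left out. Python 3.11.15 with pandas 2.3.3 and scipy 1.17.1 was used.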

Additional observations from a re-analysis of the deposited data

How the results depend on the processing

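Over the 16 members above the filter and all alternatives, 248 of 269 values kept their direction and their side of the threshold, 12 lost the call, 3 gained it and 6 changed sign. The changed signs were all of genes that did not pass the test. They were CYP20A1 at -0.05 after median centring, -0.09 after quantile normalization and -0.05 without Hep3B-Con replicate 2 (-0.05 to 0.11 over the omission of any 1 library), CYP26B1 at -0.05 after median centring, and CYP2J2 at -0.08 and CYP2W1 at -0.03 after quantile normalization. The number of members at least 2-fold higher was 4 with no filter and 1 with a pseudocount of 1 or quantile normalization, and the number at least 2-fold lower was 3 with no filter or with voom from a mean of 10 reads, through genes that these settings add. The count of 1 arose because CYP39A1 had a log2 fold change of 0.65 with a pseudocount of 1 and 0.94 after quantile normalization. CYP4V2 was at 1.02 and 1.19 under these settings. The cause of the changes in call and sign was not tested. Quantile normalization took the share of higher calls over all genes to 52.3%. The replicate numbers did not pair the libraries, since the deviations of same-numbered libraries had correlations of -0.07 to -0.00. With the replicate number as a block, CYP1B1 (-0.52, limma adjusted p = 0.0666) and CYP2U1 (0.53, limma adjusted p = 0.0599) did not pass, leaving 5 members higher and 3 lower. Genes under about 10 reads per library are limited by counting error.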

Other observations

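Other P450 pseudogenes than CYP2D7 were listed too and belong to no comparison above. CYP2AB1P had 19, 3 and 15 reads in Hep3B-Con and 10, 1 and 6 reads in Hep3B-KD, and CYP2F2P had 20, 19 and 18 reads in Hep3B-Con and 31, 19 and 28 reads in Hep3B-KD. CYP2B7P, a close copy of CYP2B6, had 0, 0 and 3 reads in Hep3B-Con and 1, 0 and 0 reads in Hep3B-KD, where CYP2B6 had 53, 51 and 37 and 4, 4 and 6 reads. CYP51A1, the sterol demethylase outside the rule for members, was at 1.35 ± 0.0592 FPKM in Hep3B-Con and 1.58 ± 0.0764 FPKM in Hep3B-KD (SD, n = 3 each) and did not pass (log2 fold change 0.21, limma adjusted p = 0.0956).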
